A study of Mus musculus with 33 samples.

Results

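The genes described here are 9 members of the Nodal pathway, Lefty1, Lefty2, Nodal, Tdgf1, Foxh1, Gdf3, Cer1, Acvr2b and Acvr1b, followed in mouse embryonic stem cells (mESCs), in embryoid bodies (EBs) and in EBs treated with retinoic acid (EBs + RA). They were chosen by gene name out of 37991 genes in the count tables, and the pathway was picked because Lefty1 was among the genes most raised in EBs + RA of the cells labelled Apex1 knockout. That contrast is therefore given below as a description, without a test. Its control libraries also enter the tests of RA in control, Neil1 and Neil2 cells, which are not independent of the choice. RNA-seq was made from 33 libraries of E14TG2a cells, a mouse embryonic stem cell line, in 12 groups of genotype and stage. Control cells were mock-transfected clones #1, #4 and #7, carrying the wild-type genotype after transfection with an empty Cas9 plasmid. Neil1 mutant cells were clones #7, #9 and #11 and Neil2 mutant cells were clones #1, #11 and #14, all made with CRISPR/Cas9 guides against a DNA glycosylase gene. Apex1 mutant cells, targeted in the gene of the main abasic site endonuclease, were 1 clone, #46, sequenced as 2 technical duplicates per stage, so their spread holds no variation between clones. All clones went through transfection and puromycin selection. The mESCs were undifferentiated cells kept in medium with LIF and serum. EBs were harvested on day 8 of culture without LIF. EBs + RA came from the same cultures, divided on day 4, after which 1 part received 5 µM retinoic acid. Replicates 1, 2 and 3 are the clones in the order given.

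Nodal is a secreted ligand of the TGF-β family that signals through activin receptors and a membrane-bound co-receptor, and its signal reaches DNA through SMAD proteins and partners such as FOXH1. In the early embryo it maintains the epiblast, induces mesendoderm and helps set the body axes. Its target genes include Nodal itself and the Lefty genes, whose secreted products block the ligand, so that the pathway carries its own inhibitors. The pathway is active in cultured mESCs, and retinoic acid drives EBs towards neural fates.

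In the NCBIM37 annotation, Lefty1 lies at chr1:182865153-182868531 and Lefty2 at chr1:182823239-182829234, both on the plus strand. The ligand genes are Nodal, at chr10:60880720-60888086 on the plus strand, and Gdf3, at chr6:122555421-122560105 on the minus strand. Tdgf1 (Cripto), the co-receptor gene, is at chr9:110842114-110848662 on the minus strand. Foxh1, which encodes the transcription factor, is at chr15:76498714-76500378 on the minus strand. Cer1, which encodes the secreted Nodal antagonist Cerberus, is at chr4:82527655-82531052 on the minus strand. The receptor genes are Acvr2b, for a type II receptor, at chr9:119311562-119342619 on the plus strand, and Acvr1b (ALK4), for a type I receptor, at chr15:101004556-101043032 on the plus strand. Values are counts over all exons of each gene, and no other annotated gene overlaps any of the 9.

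Lefty1 and Lefty2 are close copies of each other, which matters for reads of 51 bases. Of the 51-base windows along the exons, 296 occur in both genes, and 19.0% of those of Lefty1 and 14.9% of those of Lefty2 occur elsewhere in the genome. For Tdgf1 this share was 23.6%, for Gdf3 2.72% and for Cer1 1.95%, and for the other 4 members no window occurred elsewhere. The counting left out reads placed at more than 1 position, so the levels of Lefty1, Lefty2 and Tdgf1 rest on their remaining sequence.

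Of the members, 5 have an entry in the RefSeq promoter table used here (GRCm38.p6), which covers 250 bases before to 50 bases after each gene start. These are Nodal, Tdgf1, Cer1, Acvr2b and Acvr1b. Some of them are shown because they take different courses below: Tdgf1 and Nodal lost most of their RNA under RA in control EBs, whereas Acvr1b was not called. Capitals mark the letters AATNNACA (N for any base), searched on both strands. This is a loose form of the FOXH1 motif, because its middle bases were left free.
Tdgf1, chr9:110946109-110946408, minus strand: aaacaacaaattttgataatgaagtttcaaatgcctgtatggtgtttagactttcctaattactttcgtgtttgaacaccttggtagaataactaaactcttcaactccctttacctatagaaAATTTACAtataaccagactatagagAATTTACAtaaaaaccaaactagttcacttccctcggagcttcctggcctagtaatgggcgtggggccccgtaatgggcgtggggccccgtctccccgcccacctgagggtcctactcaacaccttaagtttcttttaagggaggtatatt
Nodal, chr10:61417722-61418021, plus strand: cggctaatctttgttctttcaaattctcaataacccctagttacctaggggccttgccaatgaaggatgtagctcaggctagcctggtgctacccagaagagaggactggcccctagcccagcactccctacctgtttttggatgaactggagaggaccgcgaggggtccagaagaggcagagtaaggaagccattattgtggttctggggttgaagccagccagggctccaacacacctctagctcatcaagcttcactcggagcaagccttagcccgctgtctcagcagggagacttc
Acvr1b, chr15:101173822-101174121, plus strand: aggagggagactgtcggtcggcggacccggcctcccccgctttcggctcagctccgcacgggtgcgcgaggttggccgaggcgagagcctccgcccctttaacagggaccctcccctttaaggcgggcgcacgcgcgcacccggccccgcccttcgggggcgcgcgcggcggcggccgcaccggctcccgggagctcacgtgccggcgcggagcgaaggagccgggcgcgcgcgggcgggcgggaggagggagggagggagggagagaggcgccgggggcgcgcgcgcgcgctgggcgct
The Tdgf1 window held 2 matches, starting 127 and 101 bases before the gene start, and the windows of the other 4 members held none. In comparison, 12.2% of 32851 promoter windows held at least 1 match. The windows also differed in CpG content, with 51 CpG dinucleotides in that of Acvr1b, 27 in that of Acvr2b, 7 in that of Tdgf1, 6 in that of Cer1 and 5 in that of Nodal, where the median over all windows was 7. A match is a match of letters to this loose form and shows neither a FOXH1 site nor binding.

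The libraries held between 21523742 and 48350904 counts on genes, with a median of 26720028. Levels are counts per 1000000 counts on genes (CPM), after TMM scaling over all libraries. The targeted genes did not all follow the labels: Apex1 stood at 56.5 to 86.2 CPM in the libraries labelled Apex1 and at 4.44 to 22.0 CPM in all others, and Neil1 stood at 31.55 CPM in the mESC library of Neil1 clone #7, against 7.62 to 9.85 CPM in control mESCs. Neil2 stood at 4.86 to 5.85 CPM in EBs + RA labelled Neil2, above control (3.40 to 4.50 CPM), and at 17.9 CPM in EBs of Neil2 clone #1, against 6.45 to 10.7 CPM in control. Apex1 also overlaps Tmem55b on the other strand, and libraries without strand marks do not tell the reads of the overlap apart. The authors checked their mutant clones by genotyping PCR, with western blots for NEIL1 and APEX1 and RT-qPCR for Neil2. Counts summed over a gene do not show whether the targeted part was deleted, and the names Neil1, Neil2 and Apex1 below refer to the labels. A gene was called where edgeR's quasi-likelihood test, with p-values adjusted over all tested genes by Benjamini-Hochberg (edgeR FDR), gave an FDR under 0.1 and an absolute log2 fold change over 0.5. Errors of log2 fold changes are standard errors (SE). Neil2 clone #1 (replicate 1) stood apart from the other Neil2 clones in EBs and EBs + RA for Lefty1, Lefty2, Nodal and Gdf3, and where its removal changed a call the value without it is given.

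From mESCs to EBs of control cells, Lefty1, Lefty2, Foxh1 and Cer1 rose, Tdgf1 and Gdf3 fell, and Nodal, Acvr2b and Acvr1b were not called. Lefty1 in control mESCs stood at 19.0, 32.4 and 38.9 CPM, in EBs at 88.3, 91.4 and 49.2 CPM, and in EBs + RA at 3.37, 9.16 and 3.54 CPM. Lefty2 followed the same course, with 17.8, 31.6 and 32.8 CPM in mESCs, 119.6, 104 and 92.4 CPM in EBs and 3.73, 6.71 and 5.50 CPM in EBs + RA. For both genes no 2 stages overlapped. From mESCs to EBs, Lefty1 rose by 1.32 ± 0.29 on the log2 scale (SE, n = 3 and 3, edgeR FDR 0.00638) and Lefty2 by 1.93 ± 0.22 (edgeR FDR 0.000227).

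The ligand genes did not rise with the Lefty genes. Nodal was at 112, 121 and 127 CPM in control mESCs and at 123, 109 and 92.0 CPM in EBs, ranges that overlap, and it was not called (log2 fold change −0.17 ± 0.13, edgeR FDR 0.336). Gdf3, a ligand that can signal with Nodal, was at 54.0, 58.1 and 93.9 CPM in mESCs and lower, at 44.7, 38.2 and 25.4 CPM, in EBs. Its fall of −0.94 ± 0.25 was called (edgeR FDR 0.0162), but without control clone #7 (replicate 3) the value was −0.43 and below the fold limit. Tdgf1 was by far the highest member in mESCs, at 1788, 1794 and 1145 CPM, and stood at 331.5, 340.4 and 418 CPM in EBs, a fall of −2.13 ± 0.19 (edgeR FDR 4.83e-05). Foxh1 went the other way, from 25.7, 24.9 and 32.4 CPM in mESCs to 61.8, 59.1 and 47.9 CPM in EBs, a rise of 1.01 ± 0.15 (edgeR FDR 0.000874).

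Cer1 was an EB gene in these cells. It had 3 counts in all in the control mESC libraries, with 0 in 1 of them, which allows up to 0.110 CPM there, and 302 counts in control EBs, at 2.80, 3.11 and 3.28 CPM. The ratio of EBs to mESCs was 79.4, with an exact 95% counting interval of 26.9 to 387, and the rise was called (edgeR FDR 4.05e-05). The receptor genes, like Nodal, changed little. Acvr2b was at 8.20, 7.80 and 7.51 CPM in mESCs and at 9.499, 10.8 and 7.55 CPM in EBs, and Acvr1b went from 41.0, 32.9 and 31.6 CPM to 27.7, 26.9 and 32.1 CPM. Neither was called, at 0.23 ± 0.19 and −0.30 ± 0.14 on the log2 scale. In all, 6 of the 9 members were called between control mESCs and EBs, 4 higher and 2 lower, where 38.7% of all tested genes were called.

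Under RA the ligand, co-receptor, transcription factor and inhibitor genes among the members fell in control EBs, and the receptor genes were not called. Of the 9 members 7 were called, all lower, against 44.1% of all genes called in either direction. The control EBs + RA libraries were also the control side of the contrast that picked the pathway, so this test is not independent of that choice. The median log2 fold change of the members was −3.81, against 0.01 over all tested genes. The ligand Nodal went from 123, 109 and 92.0 CPM to 6.11, 8.37 and 11.0 CPM (log2 fold change −3.68 ± 0.23, edgeR FDR 8.13e-06). Gdf3 fell to 2.21, 3.47 and 2.15 CPM (−3.81 ± 0.28, edgeR FDR 1.59e-05). Tdgf1 showed the steepest fall of the well-counted members, to 6.475, 5.01 and 11.3 CPM, which was 2.09% of its mean in EBs (−5.58 ± 0.31, edgeR FDR 6.96e-06). Foxh1 fell to 2.51, 4.07 and 6.36 CPM (−3.71 ± 0.31, edgeR FDR 3.96e-05).

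The inhibitors fell with the ligands. Lefty1 kept 7.02% and Lefty2 5.04% of their mean EB levels (log2 fold changes −3.85 ± 0.44 and −4.32 ± 0.22, edgeR FDR 0.000282 and 3.04e-06). Cer1 was left with 1 count in the 3 control EBs + RA libraries, of which 2 had 0 counts, a limit of 0.0991 and 0.0994 CPM, so that EBs held 262 times as much (exact 95% counting interval 46.6 to 10370) and the call was made at an edgeR FDR of 1.47e-05. Only the receptor genes were not called. Acvr2b stood at 11.3, 11.0 and 6.46 CPM in EBs + RA (0.03 ± 0.24), and Acvr1b at 18.5, 19.1 and 26.5 CPM (−0.45 ± 0.17, edgeR FDR 0.0515 but under the fold limit). Without control clone #7, Acvr1b passed the limit at −0.57. RNA from whole cultures does not tell fewer expressing cells from less RNA per cell, here or in any comparison below.

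Per kilobase of exon, the order of the levels changed with the stage. In control mESCs Tdgf1 led with 818 ± 194 CPM per kb (SD, n = 3), far above Nodal with 57.3 ± 3.5, and then came Gdf3 with 32.3 ± 10.3, Foxh1 with 21.2 ± 3.1, Lefty1 with 17.1 ± 5.8, Acvr1b with 10.7 ± 1.6, Lefty2 with 10.49 ± 3.2, Acvr2b with 4.47 ± 0.20 and Cer1 with 0.0223 ± 0.0226 CPM per kb. In EBs Tdgf1 still led, with 189 ± 25, and Nodal (51.6 ± 7.5), Lefty1 (43.4 ± 13.4), Foxh1 (43.1 ± 5.6) and Lefty2 (40.3 ± 5.2) lay within each other's spread. In EBs + RA the receptor genes Acvr1b (6.51 ± 1.36) and Acvr2b (5.46 ± 1.54) stood first because the others had fallen, and Nodal, Tdgf1, Foxh1 and Lefty1, at 3.05 to 4.05 CPM per kb, did not differ beyond their spread.

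**Figure D1:**
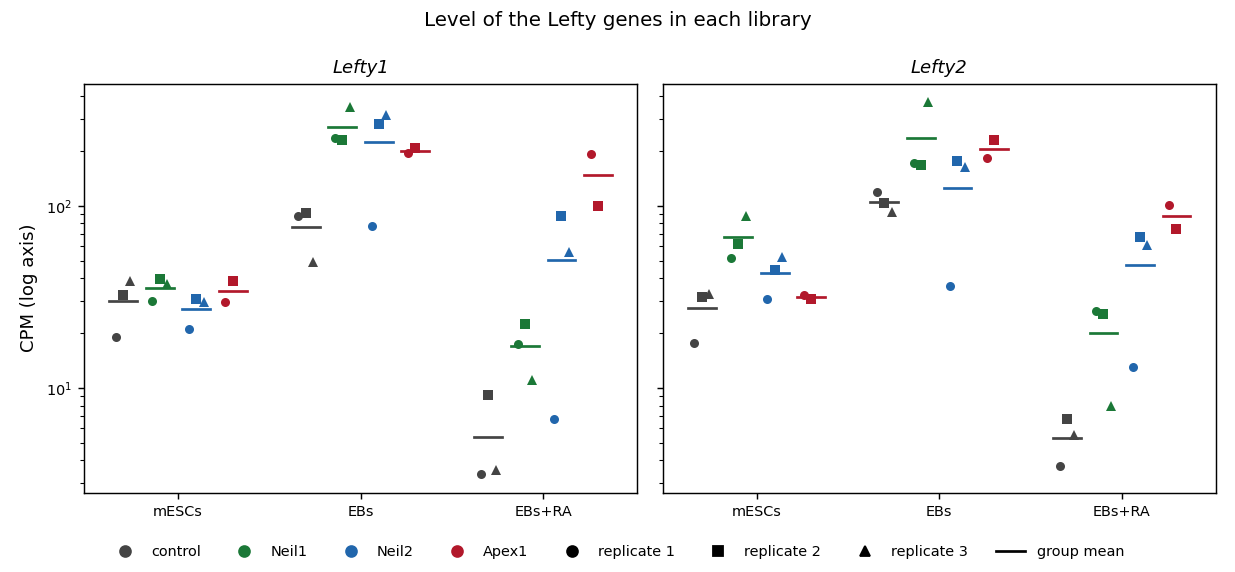
Level of Lefty1 (left) and Lefty2 (right) in CPM on a log axis, with 1 symbol per library, symbols by replicate, colours by genotype and bars at the group means, for mESCs, EBs and EBs + RA. Control libraries of EBs + RA sit between 3.37 and 9.16 CPM and the libraries labelled Apex1 between 74.4 and 194 CPM, and Neil2 replicate 1 lies apart from the other Neil2 clones in EBs and EBs + RA.

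In undifferentiated mESCs Lefty2 was called higher in Neil1 and Nodal higher in Apex1 mutants, and no other member was called. Among Neil1 mutants 1 of 8 tested members was called, among Neil2 mutants 0 of 8 and among Apex1 mutants 1 of 8, against 1.82%, 1.83% and 16.9% of all tested genes. Cer1 was too low to be tested at this stage. In the Neil2 comparison, where edgeR called none, 2 members had an unadjusted p under 0.05, Lefty2 and Nodal, and DESeq2 called 0.

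The 1 call in Neil1 mESCs was Lefty2. It stood at 51.5, 61.9 and 87.9 CPM in Neil1 mutants, above all control libraries (17.8 to 32.8 CPM), a log2 fold change of 1.28 ± 0.27 (edgeR FDR 0.0904). The call was kept in 1 of 6 fits that left out a library, the fit without control replicate 3, and without any other library the values were 1.04 to 1.43, with edgeR FDR between 0.169 and 0.338. Lefty1 was not called, at 30.0, 39.8 and 37.0 CPM (0.23 ± 0.25, edgeR FDR 0.721). In Neil2 mESCs Lefty2 was at 31.0, 44.4 and 52.4 CPM, a log2 fold change of 0.61 ± 0.26 that was not called (edgeR FDR 0.307), although it passed with a block on replicate number (0.64, edgeR FDR 0.0376). As a description, the ratio of Lefty1 to Lefty2 CPM was 1.03 to 1.19 in control mESCs, 0.421 to 0.642 in Neil1 and 0.569 to 0.697 in Neil2 mESCs, and 0.921 to 1.26 in Apex1 mESCs. Without control replicate 3, Gdf3 was also called in Neil1 mESCs (0.67, edgeR FDR 0.0451).

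The 1 call in Apex1 mESCs was Nodal, at 199 and 213 CPM against 112, 121 and 127 CPM in control (0.75 ± 0.13, edgeR FDR 0.0279). In Neil1 mESCs Nodal was at 98.35, 97.4 and 105 CPM and in Neil2 mESCs at 89.9, 90.9 and 98.7 CPM, below all control libraries but not called (−0.28 ± 0.12 and −0.39 ± 0.11). The Apex1 call was lost without control replicate 2 (edgeR FDR 0.112), without Apex1 replicate 1 (0.406), without Apex1 replicate 2 (0.259) and with the duplicates summed to 1 library (0.324). Tdgf1 was at 1188 and 1120 CPM in Apex1 mESCs (−0.48 ± 0.21, edgeR FDR 0.176), and Gdf3 was at 91.9 and 91.6 CPM (0.39 ± 0.24, edgeR FDR 0.313). Without control replicate 3 both were called, at −0.66 and 0.69. The remaining log2 fold changes in mESCs, those of Tdgf1 and Gdf3 in the Neil mutants, of Lefty1 in Neil2 and Apex1, of Lefty2 in Apex1 and of Foxh1, Acvr2b and Acvr1b in all 3 mutants, lay between −0.31 and 0.38.

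In EBs Lefty1 was called higher in all 3 mutants, which held for no other member. It stood at 235, 229 and 351 CPM in Neil1 EBs, 77.8, 281 and 316 CPM in Neil2 EBs and 194 and 207 CPM in Apex1 EBs, against 88.3, 91.4 and 49.2 CPM in control EBs. All mutant libraries but that of Neil2 clone #1 lay above all control libraries. Lefty1 rose by 1.83 ± 0.29 in Neil1 (edgeR FDR 0.00498), by 1.57 ± 0.46 in Neil2 (edgeR FDR 0.0593) and by 1.39 ± 0.28 in Apex1 EBs (edgeR FDR 0.0202). The Neil1 call held without each library in turn, and the Apex1 call without each control library. Leaving out an Apex1 duplicate does not test variation between clones, since both are of 1 clone. The Apex1 value was 1.16 to 1.53 with 1 library left out and 1.39 with the duplicates summed. The Neil2 call held only without Neil2 replicate 1, whereas without any 1 of the other 5 libraries the values were 1.26 to 1.71, with edgeR FDR between 0.113 and 0.213, and a block on replicate number also ended it (1.41, edgeR FDR 0.292).

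Lefty2 was raised in 2 of the mutants. It stood at 171, 167 and 371 CPM in Neil1 EBs and at 183 and 228.5 CPM in Apex1 EBs, all above the highest control library (119.6 CPM), and at 36.2, 176 and 164 CPM in Neil2 EBs, on both sides of control. The log2 fold changes were 1.17 ± 0.35 in Neil1 (edgeR FDR 0.0578), 0.96 ± 0.12 in Apex1 (edgeR FDR 0.000410) and 0.26 ± 0.47 in Neil2 EBs (edgeR FDR 0.775). The Neil1 call was lost without control replicate 2 (1.15, edgeR FDR 0.169) and without control replicate 3 (1.08, edgeR FDR 0.174). Without Neil2 replicate 1, the Neil2 value was 0.69 and called (edgeR FDR 0.00230).

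Among the ligands, Gdf3 rose and Nodal mostly did not. Gdf3 was at 76.5, 82.3 and 113 CPM in Neil1, 30.5, 90.2 and 86.4 CPM in Neil2 and 70.7 and 79.3 CPM in Apex1 EBs, against 44.7, 38.2 and 25.4 CPM in control. It rose by 1.32 ± 0.22 in Neil1 (edgeR FDR 0.00333) and by 1.05 ± 0.22 in Apex1 EBs (edgeR FDR 0.0135), and had a log2 fold change of 0.94 ± 0.38 in Neil2 EBs (edgeR FDR 0.147), which became 1.28 and was called without Neil2 replicate 1 (edgeR FDR 0.00227). Nodal was called in Apex1 EBs, at 189 and 176 CPM (0.75 ± 0.11, edgeR FDR 0.000849). In Neil1 EBs it was at 123, 113 and 150 CPM and in Neil2 EBs at 69.9, 143 and 147 CPM, overlapping control (0.25 ± 0.13 and 0.16 ± 0.26).

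Of the co-receptor and transcription factor genes, Tdgf1 was called higher in Apex1 EBs and Foxh1 lower in Neil1 and Neil2 EBs, and no mutant had both called. All mutant EB libraries but that of Neil2 clone #1 lay above the highest control library for Tdgf1, at 524, 501 and 438 CPM in Neil1, 386, 608 and 506 CPM in Neil2 and 692 and 677 CPM in Apex1, against 331.5, 340.4 and 418 CPM in control. It was called in Apex1 EBs (0.91 ± 0.11, edgeR FDR 0.000179), while the Neil1 value of 0.43 ± 0.11 had an edgeR FDR of 0.0129 but was under the fold limit and the Neil2 value of 0.47 ± 0.18 had an edgeR FDR of 0.138. Tdgf1 was called in Neil1 EBs without control replicate 3 (0.54, edgeR FDR 0.00353) and in Neil2 EBs without Neil2 replicate 1 (0.61, edgeR FDR 0.00703). Foxh1 was lower, at 35.0, 29.6 and 37.5 CPM in Neil1 and 29.8, 32.6 and 42.0 CPM in Neil2 EBs, all under the control libraries at 61.8, 59.1 and 47.9 CPM. It fell by 0.72 ± 0.13 in Neil1 (edgeR FDR 0.00174) and by 0.68 ± 0.16 in Neil2 EBs (edgeR FDR 0.0282), the Neil2 call being lost without control replicate 1 (−0.61, edgeR FDR 0.127) and without control replicate 2 (−0.65, edgeR FDR 0.115). In Apex1 EBs it was at 48.1 and 43.3 CPM (−0.30 ± 0.12, edgeR FDR 0.0805, under the fold limit).

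Cer1 and the receptor genes were not called in EBs of any mutant. Cer1 was at 3.40, 3.90 and 0.261 CPM in Neil1, 1.79, 1.72 and 3.51 CPM in Neil2 and 1.46 and 2.97 CPM in Apex1 EBs, with Neil1 clone #11 the lowest library. In Apex1 EBs it had a log2 fold change of −0.46 ± 0.30, and without Apex1 replicate 2 this was −1.07 and called (edgeR FDR 0.0851). Acvr2b and Acvr1b had log2 fold changes between −0.35 and 0.30. In all, 4 of 9 members were called in Neil1 EBs (3 higher, 1 lower), 2 in Neil2 EBs (1 higher, 1 lower) and 5 in Apex1 EBs (all higher), against 23.5%, 16.3% and 25.8% of all tested genes. In 1 fit of all 33 libraries, which shares 1 estimate of the spread over all groups, the Apex1 calls of Lefty1, Lefty2, Nodal and Gdf3 were lost (edgeR FDR 0.139 to 0.308) and Tdgf1 kept its call. The same fit ended the Neil1 calls of Lefty2 (edgeR FDR 0.157) and Foxh1 (0.124) and the Neil2 call of Foxh1 (0.149). The median log2 fold change over the 9 members was 0.25, 0.21 and 0.75 in Neil1, Neil2 and Apex1 EBs, and over all tested genes between 0.00 and 0.02.

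**Figure D2:**
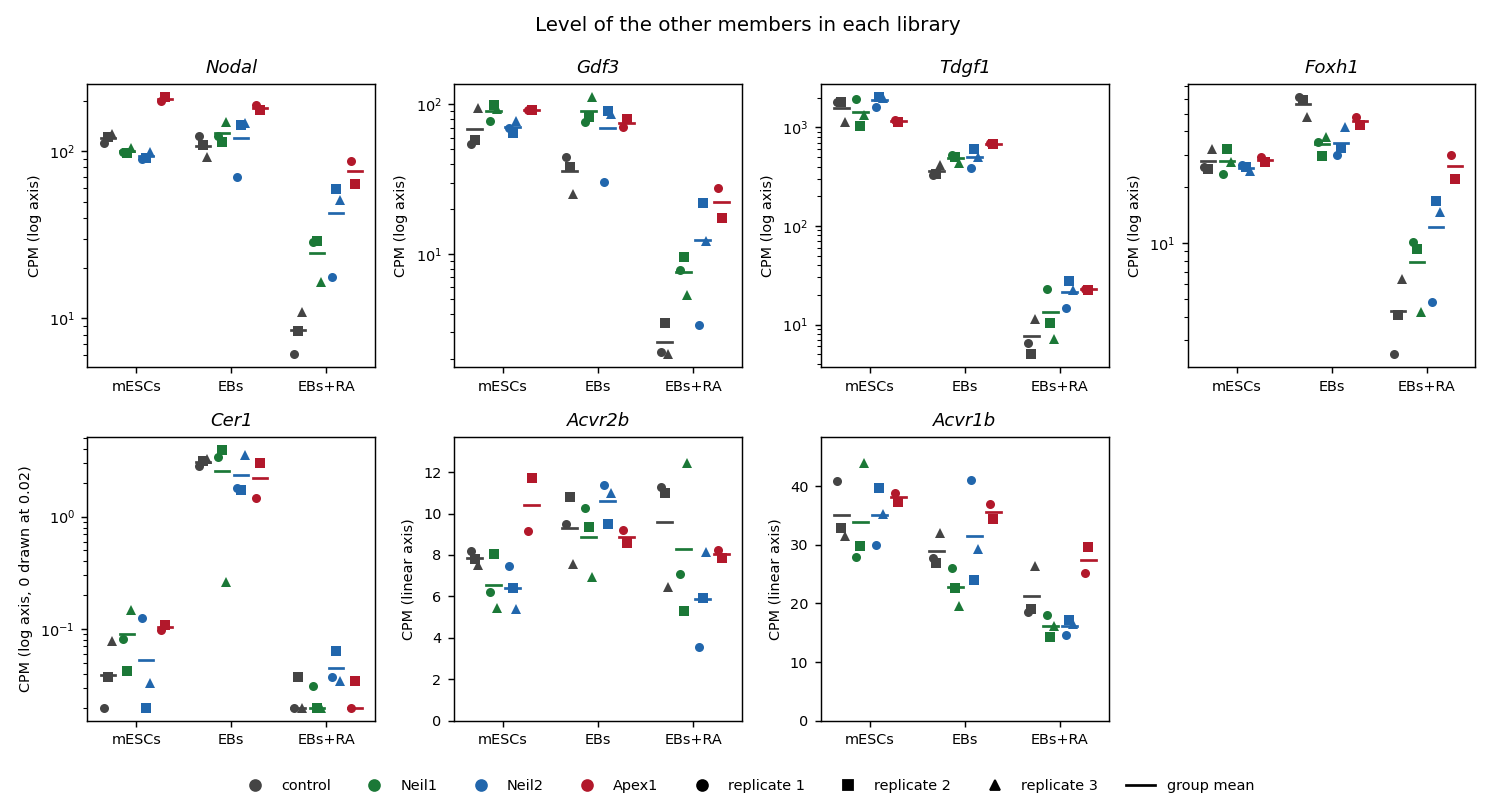
Level of the 7 other members in CPM, with 1 symbol per library, symbols by replicate, colours by genotype and bars at the group means, on log axes except for Acvr2b and Acvr1b, which have linear axes from 0. Nodal, Gdf3, Tdgf1 and Foxh1 drop in EBs + RA of all genotypes, and Cer1 is seen almost only in EBs. The receptor genes span 3.56 to 12.4 CPM (Acvr2b) and 14.2 to 44.0 CPM (Acvr1b) over all libraries. Values of 0 for Cer1 are drawn at the bottom of its axis.

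With RA, Lefty1, Lefty2, Nodal and Gdf3 were called higher in Neil1 and Neil2 EBs, and Tdgf1 and Foxh1 in Neil2 EBs. The 3 control libraries enter each of the comparisons below. They were also the control side of the contrast that picked the pathway through Lefty1. Low values in them would favour both that choice and the rises below, so these tests are not independent of it. In Neil1 EBs + RA 4 of 8 tested members were called and in Neil2 EBs + RA 6 of 8, all higher, against 41.1% and 34.9% of all tested genes called in either direction. The median log2 fold change over the tested members was 1.22 in Neil1 and 1.90 in Neil2, against 0.00 over all genes in each. Cer1 was not tested.

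Lefty1 stood at 17.4, 22.4 and 11.1 CPM in Neil1 and 6.75, 88.0 and 56.0 CPM in Neil2 EBs + RA, against 3.37, 9.16 and 3.54 CPM in control. The Neil1 libraries were all above control, whereas Neil2 clone #1 lay between the control clones. Lefty1 rose by 1.68 ± 0.43 in Neil1 (edgeR FDR 0.0187) and by 3.25 ± 0.82 in Neil2 (edgeR FDR 0.0186). Lefty2 stood at 26.6, 25.6 and 8.00 CPM in Neil1 and 13.1, 67.6 and 60.9 CPM in Neil2, all above the control libraries at 3.73, 6.71 and 5.50 CPM. It rose by 1.93 ± 0.45 in Neil1 (edgeR FDR 0.0132) and by 3.17 ± 0.56 in Neil2 (edgeR FDR 0.00452). These 4 calls held without each library in turn, at 1.42 to 2.29 (Neil1) and 2.56 to 3.87 (Neil2) for Lefty1 and at 1.68 to 2.30 (Neil1) and 2.81 to 3.61 (Neil2) for Lefty2. The Lefty1 values were 2.29 (Neil1) and 3.87 (Neil2) without control replicate 2, and 2.56 without Neil2 replicate 2. Without a filter on low counts, the Neil2 calls of Lefty1 (3.24, edgeR FDR 0.140) and Foxh1 (1.49, edgeR FDR 0.104) were lost.

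The ligands rose in both mutants. Nodal was at 28.7, 29.1 and 16.4 CPM in Neil1 and 17.7, 59.3 and 51.4 CPM in Neil2, all above control (6.11 to 11.0 CPM), and rose by 1.55 ± 0.30 (edgeR FDR 0.00575) and 2.35 ± 0.43 (edgeR FDR 0.00510). Gdf3 was at 7.84, 9.61 and 5.33 CPM in Neil1 and 3.38, 22.0 and 12.2 CPM in Neil2, with Neil2 clone #1 inside the control range of 2.15 to 3.47 CPM. It rose by 1.55 ± 0.32 (edgeR FDR 0.00769) and 2.28 ± 0.59 (edgeR FDR 0.0202). The calls of both ligands held without each library in turn, and without Neil2 replicate 2 the Neil2 value of Gdf3 was 1.59.

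Tdgf1 and Foxh1 passed the limits in Neil2 and missed them in Neil1, where their call depended on the fit. Tdgf1 was at 14.6, 27.6 and 22.2 CPM in Neil2, above control (5.01 to 11.3 CPM), a rise of 1.51 ± 0.34 (edgeR FDR 0.0113), and at 23.0, 10.4 and 7.15 CPM in Neil1 (0.84 ± 0.46, edgeR FDR 0.187). Foxh1 was at 4.80, 16.9 and 14.7 CPM in Neil2 (1.51 ± 0.49, edgeR FDR 0.0459) and at 10.1, 9.33 and 4.24 CPM in Neil1 (0.88 ± 0.42, edgeR FDR 0.133), with control at 2.51, 4.07 and 6.36 CPM. The Neil2 call of Foxh1 held only without Neil2 replicate 1 or control replicate 3, and was lost without each of the other 4 libraries (1.19 to 1.46, edgeR FDR 0.125 to 0.153). In Neil1, both genes were called without control replicate 3 (Tdgf1 1.24, Foxh1 1.27) and without Neil1 replicate 3 (Tdgf1 1.14, Foxh1 1.18). In 1 fit of all 33 libraries both were called in Neil1 as well (Tdgf1 0.83, edgeR FDR 0.0447, and Foxh1 0.88, edgeR FDR 0.0375), and DESeq2 called Foxh1 there (0.90, adjusted p 0.0780). Whether the Neil1 and Neil2 effects differ was not tested.

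The receptor genes did not rise with the others. Acvr2b was at 7.06, 5.29 and 12.4 CPM in Neil1 and 3.56, 5.93 and 8.13 CPM in Neil2, against 11.3, 11.0 and 6.46 CPM in control. Its Neil2 value of −0.69 ± 0.34 was not called (edgeR FDR 0.150), but was without control replicate 3 (−0.91, edgeR FDR 0.0583) and without Neil2 replicate 3 (−0.99, edgeR FDR 0.0909). Acvr1b was at 18.0, 14.2 and 16.1 CPM in Neil1 and 14.6, 17.2 and 16.4 CPM in Neil2, all under the control libraries at 18.5, 19.1 and 26.5 CPM and not called (−0.40 ± 0.20 and −0.39 ± 0.18).

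The genes were chosen on the EBs + RA labelled Apex1 against control EBs + RA, so the values of this contrast are given without a test. Lefty1 stood at 194 and 100.2 CPM, a level 27.4 times the control mean, with a log2 fold change of 4.82 that ranged from 4.26 to 5.44 when 1 library was left out, the highest without control replicate 2. It ranked 6 of 16239 genes by fold change. Lefty2 stood at 100.5 and 74.4 CPM (log2 fold change 4.07, rank 16), Nodal at 87.6 and 63.9 CPM (3.19, rank 65) and Gdf3 at 27.4 and 17.3 CPM (3.13, rank 69). Foxh1 was at 29.9 and 22.3 CPM (2.62, rank 148) and Tdgf1 at 22.9 and 22.5 CPM (1.61, rank 702). These 6 members were higher in both Apex1 libraries than in all controls, where 52.7% of all genes had libraries that did not overlap. Acvr2b, at 8.26 and 7.88 CPM (−0.22), and Acvr1b, at 25.2 and 29.6 CPM (0.39), overlapped control, and Cer1 was at 0 and 0.0345 CPM.

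**Figure D3:**
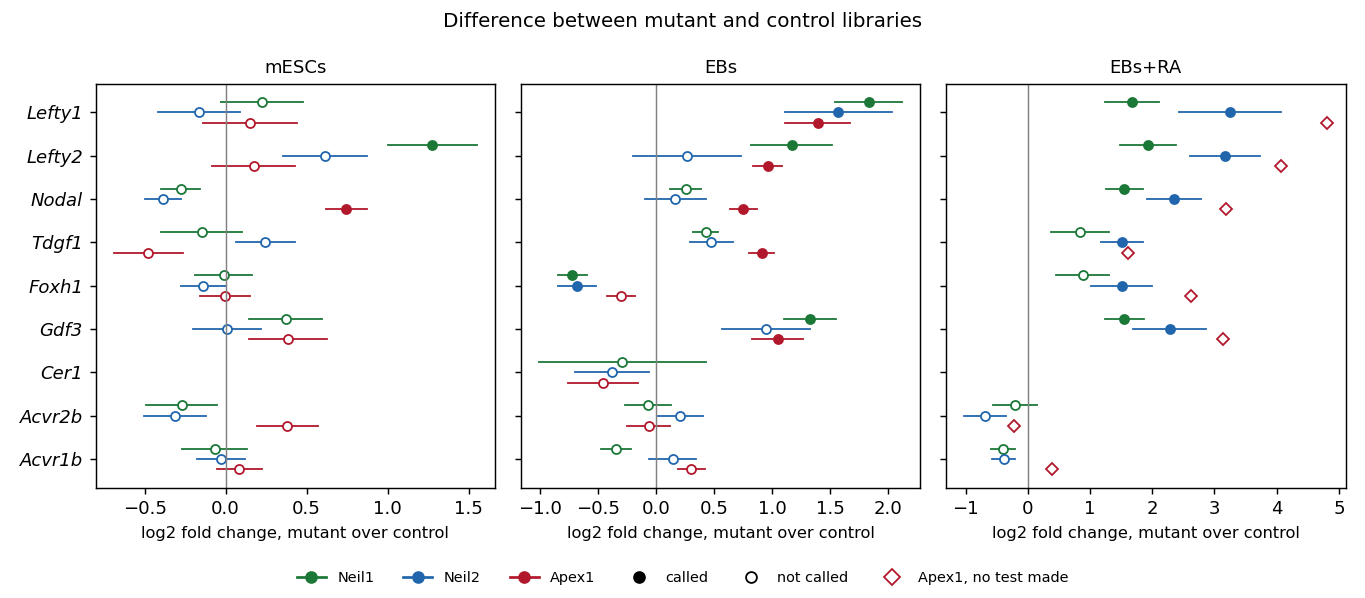
Log2 fold change of each member in mutant over control libraries of the same stage, with bars of 1 standard error and filled symbols for called members. In EBs + RA the values for Apex1, drawn as open diamonds, carry no error or test because the genes were chosen on that contrast, and Cer1 has values in EBs only. The horizontal scale differs between panels.

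The share of the EB level that remained under RA is given as a description, since the genes were chosen on the Apex1 and control values under RA. Against the 7.02% of the EB mean that control cells kept for Lefty1 under RA, Neil1 cells kept 6.24%, Neil2 cells 22.3% and Apex1 cells 73.2%. For Lefty2 the shares were 5.04%, 8.49%, 37.6% and 42.5%, for Nodal 7.84%, 19.2%, 35.6% and 41.5%, and for Foxh1 7.67%, 23.2%, 34.8% and 57.1%, in the same order. For Gdf3 they were 7.23%, 8.39%, 18.1% and 29.8%, and Tdgf1 stayed low in all genotypes, at 2.09%, 2.77%, 4.29% and 3.32%. The receptor genes did not follow, with 103%, 93.4%, 55.3% and 90.8% for Acvr2b and 73.8%, 70.8%, 51.0% and 76.9% for Acvr1b, and Cer1, at 0 to 2 counts under RA, kept 0.410%, 0.409%, 1.94% and 0.779%.

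The difference in the RA response between mutant and control was tested for Neil1 and Neil2 as an interaction over EBs and EBs + RA, called at an edgeR FDR under 0.1. The control EBs + RA libraries in it were part of the contrast that picked the pathway, so it is not independent of that choice. In Neil1 cells 2 of 9 members were called, where 32.2% of all genes were. These were Nodal (interaction 1.32 ± 0.33 on the log2 scale, edgeR FDR 0.0134) and Foxh1 (1.63 ± 0.45, edgeR FDR 0.0226), which fell less under RA than in control. Lefty1, higher in Neil1 cells both with and without RA, had an interaction of −0.14 ± 0.55 (edgeR FDR 0.880), an interval of −1.23 to 0.96 at 2 SE on each side. The Nodal call held without each clone, and that of Foxh1 was lost without control clone #1 (1.26, edgeR FDR 0.101) and without control clone #4 (1.55, edgeR FDR 0.108). Without Neil1 clone #11, Lefty2 was called as well (1.64, edgeR FDR 0.00123), against 0.78 ± 0.59 with all libraries. Tdgf1 (0.43 ± 0.51), Gdf3 (0.25 ± 0.37), Acvr2b (−0.12 ± 0.44), Acvr1b (−0.03 ± 0.24) and Cer1, with 0 to 2 counts in EBs + RA, were not called.

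In Neil2 cells 3 of 9 members were called, where 15.4% of all genes were. These were Lefty2 (2.89 ± 0.80, edgeR FDR 0.0357), Nodal (2.17 ± 0.54, edgeR FDR 0.0213) and Foxh1 (2.17 ± 0.53, edgeR FDR 0.0210). Lefty1 (1.67 ± 0.98), Tdgf1 (1.02 ± 0.40), Gdf3 (1.32 ± 0.74), Acvr2b (−0.91 ± 0.40), Acvr1b (−0.55 ± 0.28) and Cer1 were not called. Blocking on the clone, which is shared between the stages, raised the count to 7 by adding Lefty1 (1.38, edgeR FDR 0.05004), Tdgf1 (1.06, edgeR FDR 0.00581), Gdf3 (1.13, edgeR FDR 0.0307) and, in the opposite direction, Acvr2b (−0.95, edgeR FDR 0.0696). The share of all genes called under this block is not given here, so the 7 cannot be read against the 15.4%. Without a filter on low counts, Lefty2 (edgeR FDR 0.171) and Nodal (edgeR FDR 0.112) were lost. Without a clone the calls changed in both directions. Lefty2 was lost without control clone #1, control clone #4, Neil2 clone #11 or Neil2 clone #14 (2.58 to 3.10, edgeR FDR 0.118 to 0.236), Nodal without control clone #1 or #4 (1.86 and 2.15, edgeR FDR 0.157 and 0.114), and Foxh1 without control clone #1 or #4 or Neil2 clone #11 (1.81 to 2.09, edgeR FDR 0.120 to 0.131). Without Neil2 clone #1, Lefty1 (1.83), Tdgf1 (1.12) and Gdf3 (1.46) were called, and without control clone #7 Tdgf1 was (1.31).

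Interactions over mESCs and EBs asked whether the change on forming EBs differed. For Neil1, 2 of 9 members were called against 10.4% of all genes. Lefty1 rose more than in control (1.62 ± 0.41, edgeR FDR 0.0358), and Foxh1 rose less (−0.69 ± 0.22, edgeR FDR 0.0857). The Lefty1 call was lost without control clone #4 (1.69, edgeR FDR 0.119), without Neil1 clone #7 (1.60, edgeR FDR 0.119) and with the clone as a block (edgeR FDR 0.135). The Foxh1 call held only without control clone #7, and without the other clones it was −0.82 to −0.49 (edgeR FDR 0.104 to 0.321). Gdf3 was called without control clone #1 (1.28) and Tdgf1 without control clone #7 (0.87). With all libraries, neither was called (0.97 ± 0.34 and 0.59 ± 0.30), nor were Nodal (0.55 ± 0.18, edgeR FDR 0.10002), Lefty2 (−0.09 ± 0.47), Acvr2b (0.22 ± 0.30), Acvr1b (−0.26 ± 0.25) and Cer1. DESeq2 called Nodal and Gdf3 as well.

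For Neil2 none of the 9 was called by edgeR, against 10.4% of all genes, with 2 at an unadjusted p under 0.05 (Lefty1 and Foxh1) and 0 called by DESeq2. Lefty1 had an interaction of 1.71 ± 0.59 (edgeR FDR 0.107) and was called without Neil2 clone #1 (1.98, edgeR FDR 0.0132), as were Nodal (0.79) and Gdf3 (1.27), while Foxh1 was called without control clone #7 (−0.79). With all libraries, Nodal was at 0.53 ± 0.31, Gdf3 at 0.92 ± 0.47, Foxh1 at −0.56 ± 0.22, Lefty2 at −0.37 ± 0.60, Tdgf1 at 0.21 ± 0.28, Acvr2b at 0.50 ± 0.27 and Acvr1b at 0.15 ± 0.26, and Cer1 was not called. For Apex1, 2 of 9 were called against 29.5% of all genes. Tdgf1, which fell from mESCs to EBs in control, fell less (1.35 ± 0.25, edgeR FDR 0.00434), and Lefty1 rose more (1.20 ± 0.40, edgeR FDR 0.0557). The Lefty1 call held only without control clone #1, and without control clone #4, control clone #7 or either Apex1 duplicate it was 0.76 to 1.38 (edgeR FDR 0.110 to 0.356). The Tdgf1 call was lost without Apex1 replicate 1 (1.38, edgeR FDR 0.104). With the duplicates summed the Lefty1 call was lost as well (1.23, edgeR FDR 0.272), as it was with the clone as a block (edgeR FDR 0.112). Lefty2 (0.75 ± 0.31, edgeR FDR 0.101) was not called, but was by DESeq2 (0.76, adjusted p 0.0827), with at least 10 counts in every library (0.75, edgeR FDR 0.0975) and without control clone #1 (1.09). Gdf3 (0.62 ± 0.34) was called without control clone #1 (0.96), and Foxh1 (−0.34 ± 0.20), Acvr2b (−0.48 ± 0.27) and Acvr1b (0.18 ± 0.19) were called without control clone #7 (−0.54, −0.55 and 0.35). Nodal (−0.03 ± 0.18) and Cer1, with 0 to 4 counts in mESCs, were not called.

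Further genes of the pathway were followed in 4 lists, 5 ligands and convertases, 8 receptors and SMADs with their partners, 6 inhibitors and 9 targets. In control cells, the 9 targets all rose from mESCs to EBs, with a median log2 fold change of 4.32. Of all tested genes, 38.7% were called between these stages, in either direction. The mesendoderm transcription factor genes Mixl1 (6.58 ± 0.25), T (6.58 ± 0.29), Lhx1 (6.27 ± 0.33) and Foxa2 (5.98 ± 0.33) rose the most, with edgeR FDR of 8.04e-07, 1.77e-06, 3.44e-06 and 4.37e-06. Of the other lists 1 ligand gene rose and 2 fell out of 3 tested, 5 of 7 receptor and SMAD genes rose and 3 of 6 inhibitors rose. Under RA, 7 targets fell and 1 rose, with T at −8.15 ± 0.37, Mixl1 at −7.80 ± 0.34 and the epiblast gene Otx2 at −7.43 ± 0.18, and Cfc1, which encodes the co-receptor Cryptic, fell by 6.00 ± 0.48. Among the 6 inhibitors 3 rose and 3 fell, and of 7 receptor and SMAD genes 2 rose and 1 fell, while 1 of 3 ligand genes fell. Under RA 44.1% of all tested genes were called in control.

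In mutant EBs most targets were called lower. Among them, 5 of 9 targets fell and 1 rose in Neil1, 6 fell and 1 rose in Neil2, and 8 fell and 1 rose in Apex1 EBs. Of all tested genes, 23.5%, 16.3% and 25.8% were called in Neil1, Neil2 and Apex1 EBs, in either direction. The counts of the other lists in EBs are to be read against the same shares. Mixl1 fell by 5.05 ± 0.37 in Neil1 (edgeR FDR 0.000139), by 5.36 ± 0.27 in Neil2 (edgeR FDR 3.52e-05) and by 1.97 ± 0.29 in Apex1 (edgeR FDR 0.00568). T fell by 4.24 ± 0.32 in Neil1 and by 5.11 ± 0.54 in Neil2, and Gsc, a gene of the organizer, fell by 2.46 ± 0.39 in Neil2. In Apex1 EBs the endoderm genes Sox17 and Foxa2 fell by 2.21 ± 0.20 and 1.92 ± 0.24. Cfc1 fell by 2.13 ± 0.28 in Neil1 and by 1.95 ± 0.26 in Apex1. Inhbb, which encodes an activin subunit, rose by 2.28 ± 0.34 in Neil1 and by 2.19 ± 0.45 in Neil2. Of the ligand list 2 of 3 tested genes rose in both Neil mutants and 1 fell in Apex1, of the receptor list 2, 3 and 2 of 7 fell in Neil1, Neil2 and Apex1, and of the inhibitors 1 of 6 fell in Neil2 and 1 rose and 2 fell in Apex1.

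In EBs + RA the same list of targets stood mostly above control. In Neil1 6 of 8 tested targets rose and 1 fell, and in Neil2 5 of 9 rose and 1 fell. Of all tested genes, 41.1% were called in Neil1 and 34.9% in Neil2, in either direction. The receptor, ligand and inhibitor counts below are to be read against these shares. Gsc rose by 2.25 ± 0.42 in Neil1 and 2.67 ± 0.43 in Neil2, and Lhx1 fell by 3.73 ± 0.36 and 3.14 ± 0.28. Foxa2 rose by 1.61 ± 0.36 and Inhbb by 1.76 ± 0.45 in Neil1, and Eomes and Otx2 rose by 1.85 ± 0.34 and 1.58 ± 0.45 in Neil2. Both mutants had 2 of 3 ligand genes and 1 of 6 inhibitors higher and 2 of 6 receptor and SMAD genes lower. In Apex1 EBs + RA, given without a test, 6 targets stood higher and 1 lower without overlap, with Eomes at 2.34 and Lhx1 at −2.48 on the log2 scale, the convertase gene Pcsk6 at 2.06 and the activin subunit gene Inhba at −3.72. There 2 ligand or convertase genes were higher and 1 lower of 4, 4 inhibitors higher and 1 lower of 6, and 3 receptor and SMAD genes lower of 6. Of all genes, 52.7% had libraries that did not overlap in Apex1 EBs + RA.

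In mESCs few genes of these lists were called. In Neil1 mESCs Smad7 and Skil, which encode intracellular inhibitors, were called in opposite directions, at 0.58 ± 0.12 and −0.76 ± 0.16 (edgeR FDR 0.0839 for each). In Apex1 mESCs Foxa2 rose by 2.79 ± 0.45, T by 1.38 ± 0.32 and Eomes by 0.95 ± 0.17, together with Fst, which encodes the activin binding protein follistatin, by 1.76 ± 0.25 (edgeR FDR 0.0207 to 0.0446 for the 4). These were 3 of 8 tested targets and, with 1 further gene, 2 of 6 inhibitors. In addition 1 of 7 receptor and SMAD genes rose. Of all tested genes, 1.82% were called in Neil1 and 16.9% in Apex1 mESCs.

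Markers of cell types also differed between stages and genotypes, and not always in the direction of the members. The summed level of 10 pluripotency markers was 4096 to 4445 CPM in control mESCs, 1755 to 1783 CPM in control EBs and 139 to 223 CPM in control EBs + RA. In EBs it was 2690 to 3078 CPM in Neil1, 2099 to 3175 CPM in Neil2 and 2834 to 2904 CPM in Apex1, with 9, 7 and 6 of the 10 markers called higher and, in Apex1, 1 lower. In EBs + RA it was 418 to 550 CPM in Neil1, 317 to 792 CPM in Neil2 and 783 to 965 CPM in Apex1, with 10 of 10 markers called higher in Neil1 and in Neil2 and 9 of 10 higher without overlap in Apex1. Neil2 clone #1 was the lowest Neil2 library in both stages, as it was for Lefty1. In mESCs, 3 of 10 markers fell in Apex1 (3641 to 3661 CPM). Of all tested genes, 23.5%, 16.3% and 25.8% were called in Neil1, Neil2 and Apex1 EBs and 16.9% in Apex1 mESCs. In EBs + RA 41.1% were called in Neil1 and 34.9% in Neil2, and 52.7% did not overlap in Apex1. The part of these markers in the members' differences was not tested.

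The other marker lists moved as well, and no marker of any list was at 0 in all libraries of a group. Neuroectoderm markers (5 genes) summed to 190.5 to 351 CPM in control EBs + RA, against 18.7 to 40.4 CPM in Neil1, 33.2 to 36.2 CPM in Neil2 and 49.1 to 62.0 CPM in Apex1, and all 5 fell in Neil1 and Neil2. Mesoderm markers (6 genes) summed to 146 to 161 CPM in control EBs and to 20.0 to 30.3 CPM in Neil1, 18.3 to 26.8 CPM in Neil2 and 21.6 to 21.7 CPM in Apex1 EBs, where 5, 4 and 4 of 6 fell. Extraembryonic endoderm markers (10 genes), which include those of a tissue that expresses Cer1 and Lefty1 in the embryo, summed to 510.2 to 1150.3 CPM in control EBs, 809.6 to 1151 CPM in Neil1, 295 to 1501 CPM in Neil2 and 156 to 177 CPM in Apex1 EBs, where 9 of 10 fell. In EBs + RA the mesoderm sums were 106 to 114 CPM in control, 79.4 to 248 CPM in Neil1, 69.9 to 105 CPM in Neil2 and 81.3 to 93.5 CPM in Apex1, and the extraembryonic endoderm sums were 237 to 821 CPM in control, 914 to 1762 CPM in Neil1 with 5 of 10 markers called higher, 304 to 988 CPM in Neil2 and 350.2 to 366 CPM in Apex1. Of 5 tested mesoderm markers in EBs + RA, 3 were called higher and 2 lower in Neil1. In Neil2, 2 were called higher and 2 lower, and in Apex1 1 stood higher and 2 lower without overlap. The shares of all genes given for the pluripotency markers apply to these counts as well. Their part in the results was not tested either.

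**Figure D4:**
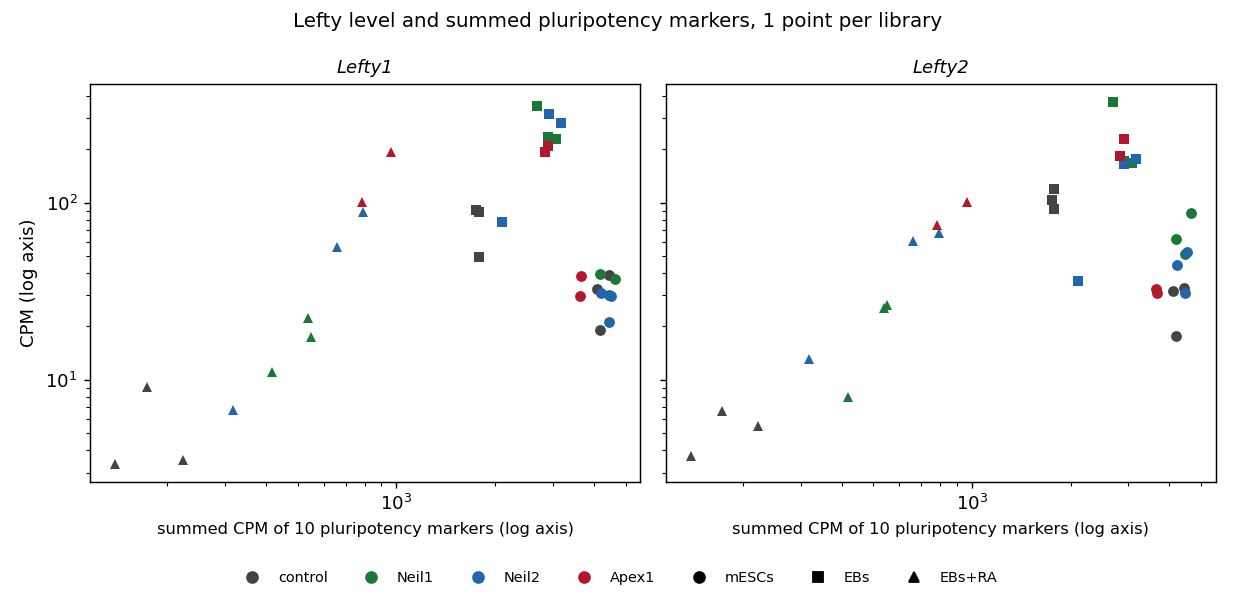
Level of Lefty1 (left) and Lefty2 (right) against the summed level of 10 pluripotency markers, both in CPM on log axes, with 1 point per library, colours by genotype and symbols by stage. Within EBs + RA the libraries spread from control at the lower left to Apex1 at the upper right, whereas mESCs have the highest marker sums (3641 CPM or more) and Lefty1 levels of 19.0 to 39.8 CPM.

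Over all 33 libraries the members formed blocks of like pattern. Pearson's r of log2 CPM, which follows stage as well as genotype because the libraries share both, was 0.95 between Lefty1 and Lefty2, 0.95 between Nodal and Gdf3, 0.93 between Nodal and Foxh1 and 0.91 between Tdgf1 and Gdf3. It was 0.75 between Lefty1 and Nodal and 0.40 between Lefty1 and Tdgf1, and Acvr2b had an r of 0.01 to 0.25 with the other members compared. Among 12708 genes compared, those most like Lefty1 were Prdm1 (r = 0.92), Phf19 (0.91), Dppa3 (0.89), St6galnac2 (0.88) and Otud1 (0.87). Those most like Nodal were Zscan10, Lrmp and Tex21 (each 0.96), Dppa4 and Aldh1l1 (each 0.95). Of these, Dppa3 and Dppa4 are genes of pluripotent cells, and Dppa3 is also in the pluripotency list above.

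Genes around the members were compared as a description. Over genes within 5 Mb of each member, the median log2 difference of a library from the control mean of its stage lay between −0.15 and 0.17 around Lefty1 and Lefty2 and between −0.09 and 0.11 around Nodal. Neil1 clone #11 stood apart around Acvr2b and Tdgf1, both on chromosome 9. Its medians in mESCs, EBs and EBs + RA were −0.36, −0.36 and −0.33 around Acvr2b and −0.25, −0.34 and −0.20 around Tdgf1, whereas the other Neil1 clones lay between −0.13 and 0.09. Around Cer1 the same clone was at −0.41 in EBs + RA only, and at 0.04 and 0.10 in mESCs and EBs.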

How the data were processed

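RNA-seq of polyA RNA (TruSeq kit without strand marks, 51 cycles) was measured in 33 libraries. Per the submitters' processing notes, the authors aligned reads to NCBIM37 (mm9) with TopHat2 2.0.9 and Bowtie2 2.1.0 and counted them per gene with HTSeq 0.5.4. The deposited values are raw counts per gene, not normalized. Summary rows that name no gene (21.8% to 30.4% of a file's total, with 11.4% to 19.9% of the total being reads without a unique position) were left out. Gene names came from the NCBIM37 annotation, which named 37205 of 37991 IDs.

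Counts were tested with edgeR 4.0.16 in R 4.3.3 (filterByExpr, TMM, robust quasi-likelihood test, Benjamini-Hochberg), per stage or over the stages compared. CPM were computed on 1 TMM scale over all libraries, and log2 CPM with a prior count of 2. All members but Cer1 had at least 65 counts in each library. The spread between libraries of different clones exceeded counting noise (chi-square per degree of freedom over genes 9.63 to 137 in 27 pairs), so that the precision rests on the number of libraries. The Apex1 duplicates of 1 clone exceeded it too (5.94 to 27.6), so the excess is not shown to be variation between clones alone. Intervals and limits from counts of 0 (3 counts) cover counting error only. Alternatives were DESeq2 1.42.0, RLE factors, other filters, 1 fit of all libraries, an FDR of 0.05, the replicate number as a block, summed Apex1 duplicates and leaving out each replicate (86 fits). The code was tested on simulated data.

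Replicates of control, Neil1 and Neil2 are independent clones, the same at each stage, so that the number pairs the samples across stages. Between control and mutant it is a number only by the labels. In EBs + RA of control and Neil1 all 3 same-numbered pairs correlated (0.22 to 0.29, against −0.18 to 0.00 for other pairs), which counts as a pairing by the limit of 0.1 set for it, and the block left that comparison at 4 called members. Deviations of same-numbered libraries correlated at −0.47 to 0.48 across stages (27 pairs). Between EBs and EBs + RA, pairs of the same clone correlated at 0.35 to 0.41 in control, 0.17 to 0.34 in Neil1 and 0.43 to 0.48 in Neil2. Pairs of different clones reached at most 0.10 there. The main fits over these 2 stages did not use this pairing, and the block on the clone is given as an alternative. The Apex1 libraries are technical duplicates and were not identical, with a chi-square per degree of freedom of 5.94 to 27.6. The members and lists were chosen with earlier results of these data known. All 9 members are named in each comparison, with values for Cer1 only where it had counts enough, and of 28 other pathway genes at most 4 called genes with the largest change, and the 5 genes most like Lefty1 and Nodal. Of the neuroectoderm list, 1 gene was not used here.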

Additional observations from a re-analysis of the deposited data

Results flagged for a closer look

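Several interaction tests found a change that differed between mutant and control, and each is given with the edgeR quasi-likelihood estimate on the log2 scale and its adjusted p (FDR). In the change from EBs to EBs + RA, Neil1 differed from control in Nodal (1.32, FDR 0.0134) and Foxh1 (1.63, FDR 0.0226), and Neil2 in Lefty2 (2.89, FDR 0.0357), Nodal (2.17, FDR 0.0213) and Foxh1 (2.17, FDR 0.0210), each falling less than in control. From mESCs to EBs, Neil1 differed in Lefty1 (1.62, FDR 0.0358) and Foxh1 (−0.69, FDR 0.0857), and Apex1 in Lefty1 (1.20, FDR 0.0557) and Tdgf1 (1.35, FDR 0.00434). For RA, 2 of 9 members (Neil1) and 3 of 9 (Neil2) were called, against 32.2% and 15.4% of all genes. The control EBs + RA libraries in these RA tests were part of the contrast that picked the pathway. On forming EBs these were 2 of 9 each for Neil1 and Apex1, against 10.4% and 29.5%. With 1 clone left out, the Neil1 RA calls of Nodal and Foxh1 held in 6 and 4 of 6 fits. Those of Lefty2, Nodal and Foxh1 in Neil2 held in 2, 4 and 3 of 6. The Neil1 EB calls of Lefty1 and Foxh1 held in 4 and 1 of 6. The Apex1 call of Lefty1 was lost without control replicate 2 or 3.

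The pathway's other genes gave larger differences. In the change from EBs to EBs + RA, Neil1 differed from control in Mixl1 (5.98), Gsc (4.30), T (4.22) and Cfc1 (3.67). Neil2 differed in Mixl1 (6.47), T (5.60), Gsc (5.11) and Eomes (3.55), with FDR between 1.55e-05 and 0.00228 over both mutants. These are differences in the RA response, not in the level under RA. Mixl1 already stood lower than control in EBs without RA, by 5.05 in Neil1 and 5.36 in Neil2, and T by 4.24 and 5.11. Gsc also stood higher in EBs + RA, by 2.25 in Neil1 and 2.67 in Neil2. From mESCs to EBs, Neil1 differed in Mixl1 (−4.79), T (−3.65), Gsc (−3.05) and Inhbb (2.76), and Neil2 in Mixl1 (−5.04), T (−3.54), Gsc (−2.85) and Inhbb (2.51), with FDR between 2.08e-05 and 0.0321. Apex1 differed in Foxa2 (−4.76), T (−2.88), Lhx1 (−2.77) and Sox17 (−2.50), with FDR between 0.000133 and 0.00682. Apex1 was not tested under RA.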

How the results depend on the processing

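No member reversed a called direction under any alternative run. With 1 replicate left out, 664 member values kept their side of the limit, 31 gained a call and 45 lost it, and under other settings 933 kept it, 19 gained a call and 32 lost it, where a sign change of a value called in neither fit counts as kept. Numbers of called members in mESCs moved for Neil1 from 1 to 0 (1 fit of all libraries, replicate block, FDR 0.05), for Neil2 from 0 to 1 (replicate block) and for Apex1 from 1 to 0 (1 fit, summed duplicates) or 3 (replicate block). In EBs they moved for Neil1 from 4 to 2 (1 fit of all libraries) or 3 (no filter, FDR 0.05), for Apex1 from 5 to 1 (1 fit) and for Neil2 from 2 to 1 (no filter, 1 fit, replicate block, FDR 0.05) or 3 (DESeq2). In EBs + RA they moved for Neil1 from 4 to 5 (DESeq2) or 6 (1 fit) and for Neil2 from 6 to 4 (no filter) or 7 (1 fit). For Neil2 by RA the 3 became 1 without a filter, 4 with DESeq2 and 7 with the replicate block. For Neil1 by EBs the 2 became 4 (DESeq2, 10 counts in every library), 1 (no filter, FDR 0.05) or 0 (1 fit, replicate block), and for Apex1 by EBs 1 (no filter, 1 fit, replicate block, FDR 0.05, summed duplicates) or 3 (DESeq2, 10 counts in every library). With 10 counts in every library, control members called went from 6 to 5 (EBs against mESCs) and from 7 to 6 (RA). Shares of all genes called under each alternative are not given here. The counts therefore do not show whether the members moved more than other genes, and the cause was not tested.

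Leaving out 1 replicate gave, in mESCs, 0 to 2 called members for Neil1, 0 for Neil2 and 0 to 3 for Apex1, in EBs 3 to 4, 0 to 5 and 5 to 6, in EBs + RA 4 to 6 for Neil1 and 5 to 7 for Neil2, in control 5 to 6 (EBs against mESCs) and 7 to 8 (RA), under RA 1 to 3 for Neil1 and 0 to 6 for Neil2, and on forming EBs 0 to 3 for Neil1, 0 to 3 for Neil2 and 0 to 4 for Apex1. These counts also stand without the share of all genes called in each fit. For Lefty1 in Apex1 EBs + RA the log2 fold change was 4.26 to 5.44. Pairing by the replicate block between control and mutant rests on the number only, where same-numbered libraries correlated at −0.44 to 0.56 and others at −0.64 to 0.49, except that all pairs of control and Neil1 in EBs + RA correlated (0.22 to 0.29). Depth limits Cer1, at 0 to 4 counts outside EBs, and with 2 or 3 libraries a group a value that misses the limit does not show that groups are alike.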
